A study of Mus musculus with 16 samples.

Results

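The regions described here are all ATAC-seq peaks on mouse chromosomes 9, 10 and 13, taken from 16 peak lists of spermatogenic cells. They comprise 171246 of 1111092 peaks (15.4%), of which 59147 lay on chromosome 9, 58835 on chromosome 10 and 53264 on chromosome 13. Peaks of different libraries that overlapped by at least 1 bp formed 57028 merged regions on these chromosomes, of 367750 in all. The members were chosen by measured values: these 3 autosomes had the largest relative change in their share of peaks between Scml2-KO and wild-type libraries of pachytene spermatocytes and round spermatids. That contrast is therefore given as a description, without a test, and supports nothing here. The mean log2 ratio of share (KO over WT) over these 2 populations was -0.41 for chromosome 10, 0.28 for chromosome 9 and 0.26 for chromosome 13, and the nearest chromosome outside the set, chromosome 7, had 0.20. On the scale of percentage points the order differed, with -1.42 for chromosome 10, 1.098 for chromosome 9, 0.927 for chromosome 7 and 0.859 for chromosome 13.

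ATAC-seq cuts and tags accessible DNA with the Tn5 transposase, so that a peak marks a stretch of open chromatin. All mice were of strain C57BL/6 and the tissue was testis. Thy1+ spermatogonia and c-Kit+ spermatogonia came from mice aged P7 (postnatal day 7) and used about 500000 cells a reaction, whereas pachytene spermatocytes (PS, about 250000 cells) and round spermatids (RS, about 1000000 cells) came from adult mice. Each of these 4 populations was sampled from wild-type (WT) and Scml2 knockout (KO) mice with 2 libraries a group, 16 in all. The allele of the knockout and the number of animals behind each library are not given in the labels, so the p-values below measure the spread between these libraries. Stage and age cannot be told apart in any comparison of P7 with adult cells, and peak lists do not show whether Scml2 was deleted.

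SCML2 is a germline member of the Polycomb group, the chromatin regulators that hold developmental genes silent. It is known in the mouse testis for silencing genes of the progenitor program in meiotic and later germ cells, and for acting on the silent sex chromosomes of spermatocytes. Thy1+ cells are undifferentiated spermatogonia, c-Kit+ cells have begun to differentiate, pachytene spermatocytes are in meiotic prophase, and round spermatids are the haploid cells that follow. Distal open sites, outside promoters, are usually the part of the accessible genome that changes most between cell types.

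List length differed widely and went with the replicate number: the lists held 17410 (c-Kit+ KO replicate 2) to 163610 (RS KO replicate 1) autosomal peaks, and replicate 1 was the longer list in all 8 groups. For this reason a chromosome is described by its share of the autosomal peaks of the same library. Peaks are a thresholded readout without the reads behind them, and the interval of a share covers counting error alone. Replicates differed by more than that: chromosome 13 in RS KO had 6.13% (95% Wilson interval 6.02% to 6.25%) and 4.87% (4.62% to 5.13%).

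The promoters shown first are those where a population or genotype had a peak at the gene start and another had none, chosen after their values were seen. Each is the 250 bases before the RefSeq start (GRCm38.p6), 5′ to 3′ on the gene's strand, and CG dinucleotides are in capitals. The 9 genes shown had an entry, whereas Irx1, Gm684, Dcn and Slc6a15, named below, had none under these symbols. The promoters of Tex12, a synaptonemal complex component, Topaz1, a germ cell protein needed for meiosis, Spata19, a sperm mitochondrial protein, and Spz1, a testis transcription factor, had peaks in adult libraries:
Tex12, chr9:50561269-50561518 (minus strand): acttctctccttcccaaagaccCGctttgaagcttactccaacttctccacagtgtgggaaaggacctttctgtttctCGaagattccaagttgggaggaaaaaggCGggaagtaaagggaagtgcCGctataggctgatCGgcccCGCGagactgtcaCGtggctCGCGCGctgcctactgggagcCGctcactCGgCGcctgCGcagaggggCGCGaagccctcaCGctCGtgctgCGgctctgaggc
Topaz1, chr9:122746949-122747198 (plus strand): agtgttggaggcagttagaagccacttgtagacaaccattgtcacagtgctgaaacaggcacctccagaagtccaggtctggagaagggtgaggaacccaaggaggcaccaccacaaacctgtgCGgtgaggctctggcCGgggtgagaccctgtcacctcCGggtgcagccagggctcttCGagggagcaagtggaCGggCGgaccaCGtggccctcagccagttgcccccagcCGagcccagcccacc
Spata19, chr9:27396557-27396806 (plus strand): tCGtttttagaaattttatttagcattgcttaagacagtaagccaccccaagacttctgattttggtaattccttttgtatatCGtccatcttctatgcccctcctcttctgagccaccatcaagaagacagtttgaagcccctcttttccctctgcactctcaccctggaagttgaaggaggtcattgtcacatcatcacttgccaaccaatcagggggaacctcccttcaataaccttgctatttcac
Spz1, chr13:92576233-92576482 (minus strand): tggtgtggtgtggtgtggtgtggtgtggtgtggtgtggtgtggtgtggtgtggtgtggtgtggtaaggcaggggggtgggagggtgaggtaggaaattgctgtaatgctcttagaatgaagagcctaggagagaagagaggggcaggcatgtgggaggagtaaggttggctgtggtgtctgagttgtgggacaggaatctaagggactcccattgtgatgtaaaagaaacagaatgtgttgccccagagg
The promoters of Glrx, which encodes glutaredoxin, and Rgs17, a regulator of G protein signalling, had peaks in P7 libraries:
Glrx, chr13:75839635-75839884 (plus strand): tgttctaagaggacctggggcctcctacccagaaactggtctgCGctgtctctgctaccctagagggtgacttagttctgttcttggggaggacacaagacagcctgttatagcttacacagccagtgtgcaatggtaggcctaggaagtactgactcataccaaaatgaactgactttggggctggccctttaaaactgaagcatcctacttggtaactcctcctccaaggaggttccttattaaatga
Rgs17, chr10:5922401-5922650 (minus strand): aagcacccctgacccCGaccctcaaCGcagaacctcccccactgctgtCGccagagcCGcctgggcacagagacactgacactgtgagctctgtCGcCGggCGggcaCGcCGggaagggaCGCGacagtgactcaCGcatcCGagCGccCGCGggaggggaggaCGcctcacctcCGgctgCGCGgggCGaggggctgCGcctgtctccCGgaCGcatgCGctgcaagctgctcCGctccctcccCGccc
Within 1 kb of the start, Irx4, an Iroquois homeobox factor, and Snx33, a sorting nexin, had peaks in KO but not in WT libraries of adult cells. Grik2, a kainate receptor subunit, had the reverse. Over the printed bases, peaks lay in only 2 adult KO libraries for Irx4, 2 adult KO libraries for Snx33 and 2 adult WT libraries for Grik2. The windows of Snx33 and Grik2 also had peaks in 4 WT and 4 KO libraries of P7 cells:
Irx4, chr13:73260247-73260496 (plus strand): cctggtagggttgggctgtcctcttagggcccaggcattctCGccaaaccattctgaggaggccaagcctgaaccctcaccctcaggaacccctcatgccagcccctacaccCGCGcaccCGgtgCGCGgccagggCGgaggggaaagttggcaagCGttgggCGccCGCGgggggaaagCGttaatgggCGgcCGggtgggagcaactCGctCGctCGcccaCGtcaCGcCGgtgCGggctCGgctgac
Snx33, chr9:56928372-56928621 (minus strand): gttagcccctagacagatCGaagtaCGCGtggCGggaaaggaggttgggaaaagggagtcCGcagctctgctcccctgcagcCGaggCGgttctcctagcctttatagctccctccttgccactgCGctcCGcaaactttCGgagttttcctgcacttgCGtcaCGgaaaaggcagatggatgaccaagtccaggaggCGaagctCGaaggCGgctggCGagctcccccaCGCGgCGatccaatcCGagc
Grik2, chr10:49788755-49789004 (minus strand): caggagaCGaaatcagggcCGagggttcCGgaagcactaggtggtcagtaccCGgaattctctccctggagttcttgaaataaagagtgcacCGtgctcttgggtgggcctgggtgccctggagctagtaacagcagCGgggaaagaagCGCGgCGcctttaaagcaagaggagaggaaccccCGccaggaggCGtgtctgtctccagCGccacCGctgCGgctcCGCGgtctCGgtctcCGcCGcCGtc

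CG dinucleotides were frequent in some windows shown for adult or for P7 peaks and rare in others. They were frequent in the windows of Irx4, Snx33 and Grik2, shown for genotype. Spz1 had 0, Glrx 1, Spata19 2 and Topaz1 8, while Tex12, Snx33 and Grik2 had 20 each, Irx4 had 22 and Rgs17 had 27. The median over 27025 promoters of the table, with 1 start a gene, was 6, and it was also 6 over the 4226 on these 3 chromosomes. The letters GGGCGG, read on both strands, were present in the windows of Topaz1, Rgs17 and Irx4 and in 32.9% of all promoters. TGACG, on either strand, was present in those of Irx4 and Snx33 and in 17.9% of all promoters.

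Chromosome 9 held 5.13% and 4.88% of autosomal peaks in Thy1+ WT replicates 1 and 2, 5.02% and 5.04% in c-Kit+ WT, 5.27% and 5.40% in PS WT, and 4.84% and 5.11% in RS WT. In KO libraries it held 5.00% and 4.91% in Thy1+, 4.91% and 5.35% in c-Kit+, 5.79% and 6.16% in PS, and 6.82% and 6.25% in RS. The 4 adult KO libraries thus had the 4 highest shares of the 16, and all the spermatogonial libraries lay at or below 5.35%.

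Chromosome 10 went the other way in adult KO libraries. Its share was 5.88% and 6.08% in Thy1+ WT, 6.01% and 5.82% in c-Kit+ WT, 5.86% and 5.72% in PS WT, and 5.66% and 6.04% in RS WT. In KO it was 5.98% and 5.83% in Thy1+, 6.08% and 5.35% in c-Kit+, 4.71% and 5.00% in PS, and 3.70% and 4.17% in RS. The 4 adult KO libraries had the lowest shares, and RS KO lay below PS KO in both replicates.

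Chromosome 13 held 4.73% and 4.76% of autosomal peaks in Thy1+ WT, 4.75% and 4.63% in c-Kit+ WT, 4.51% and 4.42% in PS WT, and 4.35% and 3.99% in RS WT. Its KO shares were 4.72% and 4.64% in Thy1+, 4.84% and 4.10% in c-Kit+, 4.87% and 4.83% in PS, and 6.13% and 4.87% in RS. The adult KO libraries were above the adult WT libraries, but 3 of the 4 lay between 4.83% and 4.87%, close to the highest spermatogonial library at 4.84%. RS KO replicate 1, the longest list, stood apart at 6.13%.

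**Figure D1:**
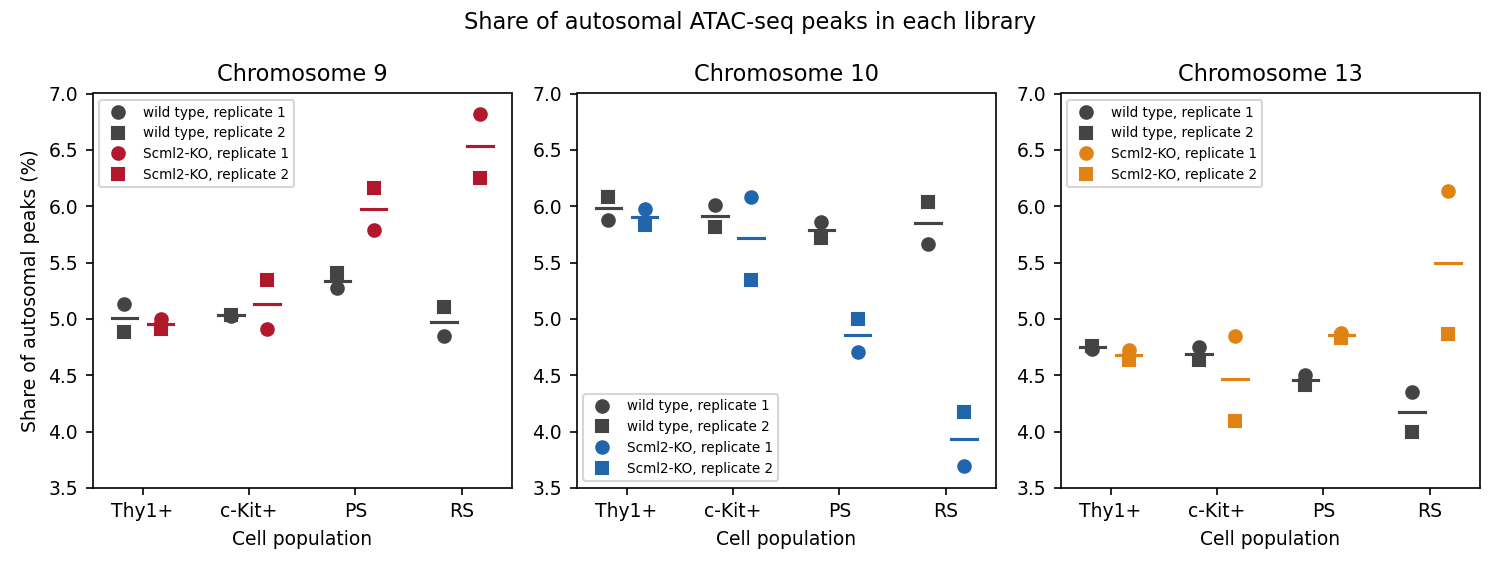
Share of autosomal peaks (%, y axis, which does not start at 0) on chromosomes 9, 10 and 13 in the 16 libraries by population (x axis). Circles are replicate 1, squares replicate 2, grey wild type, colour Scml2-KO, and lines the mean of 2 libraries; in PS and RS the KO points of chromosomes 9 and 13 lie above, and those of chromosome 10 below, the wild-type points.

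KO minus WT in PS was 0.636 points for chromosome 9 (5.97% ± 0.264 against 5.34% ± 0.0947, SD, n = 2 each), -0.934 for chromosome 10 (4.85% ± 0.204 against 5.79% ± 0.0978) and 0.392 for chromosome 13 (4.85% ± 0.0309 against 4.46% ± 0.0631). In RS it was 1.56, -1.92 and 1.33 points, and without RS KO replicate 1 or 2 the value for chromosome 13 was 0.694 or 1.96. Both KO libraries lay beyond both WT libraries for each of the 3 chromosomes in both populations. Over the 19 autosomes, that held for 15.8% (KO higher) and 21.1% (KO lower) in PS, and for 26.3% in each direction in RS. Since the rule used this contrast, nothing is read from these counts. In Thy1+ cells chromosome 13 alone of the 3 was so separated, lower in KO (10.5% in each direction over all autosomes), and in c-Kit+ cells none was (5.26% higher and 0.00% lower). The summed share of the 3 chromosomes hid the movement, because chromosome 10 was lower and the others higher in KO: the KO minus WT difference of the sum was 0.0944 points in PS and 0.970 in RS. Without PS KO replicate 1 or 2 the sum in PS was 0.403 or -0.215, and without PS WT replicate 2 it was 0.0476; in RS it was 0.287 or 1.65 without KO replicate 1 or 2 and 0.376 in lists of equal length.

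The same-numbered libraries gave the same sign in every adult pair, as they had to where KO and WT libraries did not overlap. The rule chose the chromosomes by these adult values, so their size beside the spermatogonial ones is a description only. For chromosome 9 the smallest of the 4 adult differences was 0.517 points and the largest of the 4 spermatogonial ones, in absolute size, was 0.312. For chromosome 10 these were 0.721 and 0.469. For chromosome 13 they overlapped, at 0.370 and 0.535, the latter in the pair with the shortest list.

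**Figure D2:**
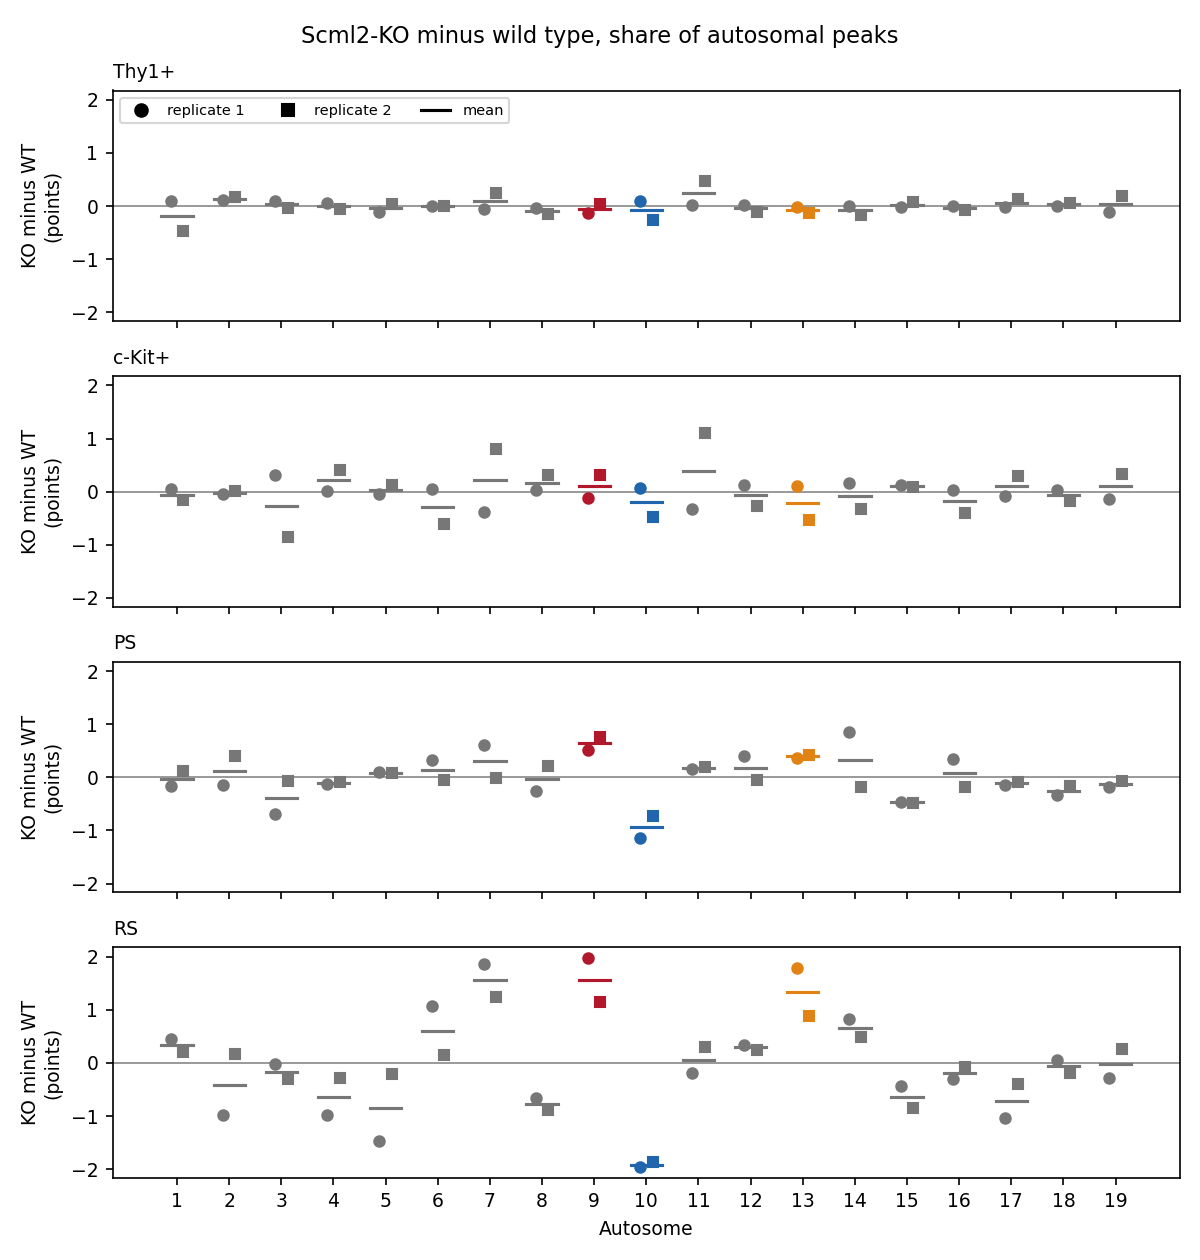
Scml2-KO minus wild type in the share of autosomal peaks (percentage points, y axis) for each of 19 autosomes (x axis) in the 4 populations. Circles and squares are the same-numbered pairs 1 and 2, lines their mean; chromosomes 9 (red), 10 (blue) and 13 (orange) lie near 0 in Thy1+ cells and move apart in PS (0.636, -0.934 and 0.392) and further in RS (1.56, -1.92 and 1.33).

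Counts of peaks restate these shares beside the other 16 autosomes. From RS WT to RS KO replicate 1, peaks on chromosome 9 went from 2516 to 11162 (4.44-fold) and on chromosome 13 from 2262 to 10032 (4.44-fold), while the other autosomes together went up 3.08-fold and chromosome 10, from 2942 to 6049, 2.06-fold. In RS replicate 2, where the KO list was the shorter, the ratios were 1.06 for chromosome 9 (1579 to 1681), 1.06 for chromosome 13 (1235 to 1310), 0.602 for chromosome 10 (1867 to 1123) and 0.869 for the others. In PS replicate 2 the ratios were 1.02, 0.979, 0.782 and 0.891 for chromosomes 9, 13, 10 and the others.

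In spermatogonia, which the rule did not use, KO and WT shares were tested by an exact permutation of genotype within Thy1+ and c-Kit+ cells. The differences were 0.0238 points for chromosome 9 (exact permutation p = 0.889), -0.139 for chromosome 10 (p = 0.611) and -0.144 for chromosome 13 (p = 0.556), two-sided, n = 4 libraries a genotype. No autosome passed after Benjamini-Hochberg adjustment over 19 (0.00% called, none at an unadjusted p below 0.05, lowest adjusted p 0.944). The design allows no p below 0.0556, so no difference of any size could have passed. Without c-Kit+ KO replicate 2, the shortest list, the values for chromosomes 9, 10 and 13 were -0.0852, 0.0440 and 0.0429, each of the opposite sign.

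Between P7 spermatogonia and adult germ cells, the share of chromosome 9 was 5.03% ± 0.153 (SD, n = 8) against 5.71% ± 0.669 (n = 8), a difference of -0.675 points (exact permutation test over libraries, two-sided, p = 0.0113, adjusted p = 0.0269 over 19 autosomes). For chromosome 10 it was 5.88% ± 0.238 against 5.11% ± 0.857 (0.772 points, exact permutation p = 0.0250, adjusted p = 0.0528), and for chromosome 13 4.65% ± 0.233 against 4.75% ± 0.638 (-0.101 points, exact permutation p = 0.754, adjusted p = 0.895). Of all autosomes 42.1% were called, so that 1 call among 3 is not a result about these chromosomes. The adult class holds the 8 libraries by which they were chosen, so the p-values are not independent of the choice, and the groups of chromosome 9 overlapped, with 4.88% to 5.35% in P7 and 4.84% to 6.82% in adult cells. The call for chromosome 9 was also lost in lists of equal length (-0.387, adjusted p = 0.112) and when any of 6 P7 libraries was left out: either c-Kit+ WT library, Thy1+ WT replicate 2, either Thy1+ KO library or c-Kit+ KO replicate 1, with adjusted p from 0.0509 to 0.0594 by the same exact permutation test. Chromosome 10 passed without either PS WT library, either RS WT library or c-Kit+ KO replicate 2, with adjusted p from 0.0131 to 0.0404.

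Each genotype is given alone as a description, with no test, since the adult libraries of both chose the chromosomes. In wild type the mean P7 and adult shares were 5.02% and 5.16% for chromosome 9, 5.95% and 5.82% for chromosome 10, and 4.72% and 4.32% for chromosome 13, where every adult library lay below every P7 library. In KO they were 5.04% and 6.25% for chromosome 9 and 5.81% and 4.39% for chromosome 10, with no overlap of P7 and adult libraries on either, and 4.57% and 5.18% for chromosome 13. P7 minus adult was thus -0.138 points in WT and -1.21 in KO for chromosome 9, and 0.401 and -0.603 for chromosome 13, of opposite signs. Whether the age difference itself differed between genotypes was not tested.

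By class of region, as the authors annotated each peak, the KO minus WT difference was smaller among promoter peaks than among intergenic or intronic ones. In RS the share of chromosome 10 among intergenic peaks was 6.26% in WT and 3.61% in KO (-2.66 points), and among promoter peaks 5.27% and 4.67% (-0.603). Chromosome 9 held 4.02% and 6.66% of intergenic peaks (2.63 points) and 5.78% and 6.26% of promoter peaks (0.476). Chromosome 13 held 5.41% and 7.27% of intergenic peaks (1.86 points) and 3.69% and 4.12% of promoter peaks (0.426). Introns had 1.80, -2.60 and 1.74 points and exons 1.65, -3.02 and 1.03 for chromosomes 9, 10 and 13 in RS.

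In PS the same order held for chromosomes 9 and 10: 1.29 points for intergenic and 0.242 for promoter peaks of chromosome 9, and -1.92 and -0.143 for chromosome 10. Chromosome 13 had 0.598 for intergenic and 0.296 for promoter peaks, but its intergenic pairs differed, at -0.0108 and 1.21. Promoter peaks of chromosomes 9 and 13 were higher, and those of chromosome 10 lower, in KO in both pairs of PS and of RS. Promoter peaks are also the class most alike across libraries: of the 1254 regions on these chromosomes with a peak in all 16 libraries, 1128 (90.0%) were promoters, against 6.502% of all 57028 regions.

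**Figure D3:**
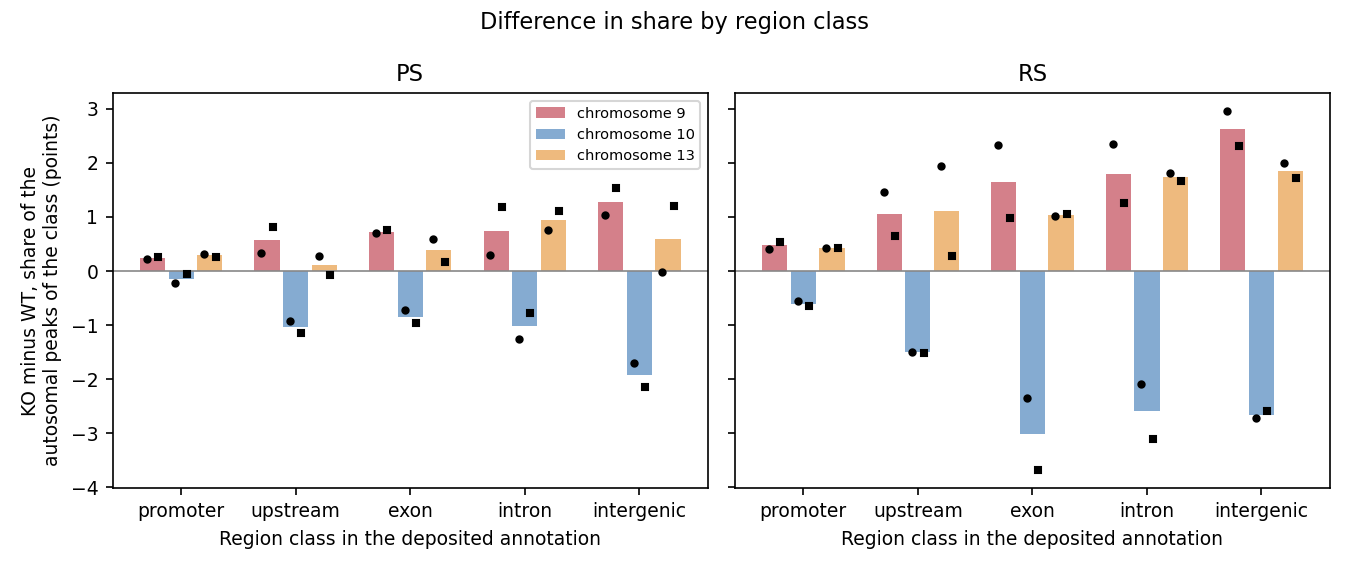
Scml2-KO minus wild type (percentage points, y axis) in the share of autosomal peaks of each annotated class (x axis) that lay on chromosomes 9 (red), 10 (blue) and 13 (orange), in PS and RS. Bars are means, and circles and squares the same-numbered pairs 1 and 2; in RS the promoter bars (0.476, -0.603 and 0.426) are shorter than the intergenic ones (2.63, -2.66 and 1.86).

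Raising the threshold on fold enrichment, the authors' ratio of a peak's summit to its background, left the RS pattern in place. With peaks of at least 10-fold enrichment, the RS differences were 1.30 points for chromosome 9, -1.27 for chromosome 10 and 0.990 for chromosome 13, and both pairs had these signs at every threshold from 4 to 20. In PS at 10-fold they were 0.290, -0.733 and 0.406. Chromosome 9 in PS was -0.0198 at 15-fold, with pairs of 0.0998 and -0.139, and chromosome 13 in PS had a pair at -0.00466 at 20-fold. At 20-fold as few as 14 peaks remained on chromosome 10 in an RS library and 27 on chromosome 13 in a PS library. The median fold enrichment of a chromosome equalled that of the other autosomes of its library in 39 of 48 cases, was higher in 7, by at most 1.01 (chromosome 9 in PS WT replicate 2, 7.04 against 6.03), and lower in 2 (chromosomes 10 and 13 in Thy1+ WT replicate 1, 4.82 against 5.43).

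**Figure D4:**
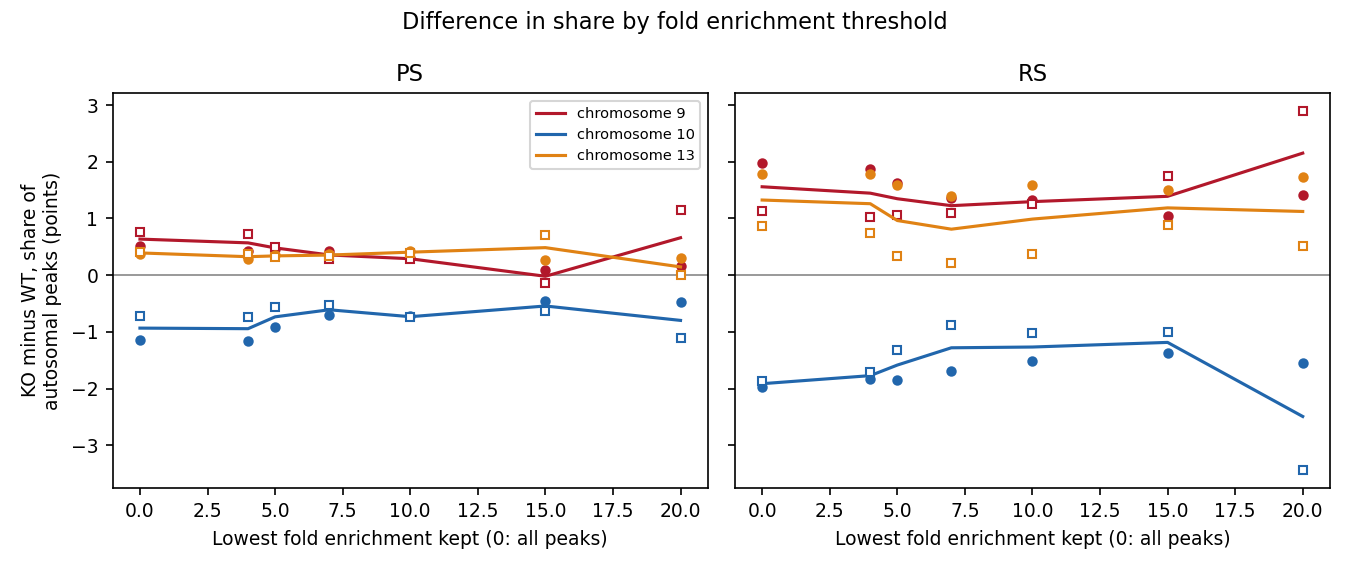
Scml2-KO minus wild type in the share of autosomal peaks (percentage points, y axis) against the lowest fold enrichment kept (x axis), for chromosomes 9 (red), 10 (blue) and 13 (orange) in PS and RS. Lines are means, filled circles pair 1 and open squares pair 2; in RS chromosome 10 stays below 0 and chromosomes 9 and 13 above 0 throughout, from -1.92, 1.56 and 1.33 with all peaks.

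The change was not even along the chromosomes. In bins of 10 Mb, chromosome 10 in RS was lower in KO between 50 and 80 Mb (log2 ratio of share, KO over WT, -1.44, -1.44 and -1.15) and between 100 and 130 Mb (-1.87, -1.26 and -1.32). From 80 to 100 Mb it was -0.09 and 0.08, and the first 20 Mb were higher in KO (0.47 and 0.52). The bin from 100 to 110 Mb held 230 and 89 peaks in RS WT against 175 and 25 in RS KO replicates 1 and 2, although the KO replicate 1 list was 3.08 times as long over the other autosomes. The same bin held 287 and 49 peaks in PS WT and 79 and 24 in PS KO (log2 ratio -1.60), and its log2 ratio was -0.09 in Thy1+ and -0.24 in c-Kit+ cells. The bin from 120 to 130 Mb held 360 and 201 peaks in RS WT and 233 and 106 in RS KO, a log2 ratio of -1.32, against -0.31 in PS.

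Chromosomes 9 and 13 had bins of both signs. On chromosome 9 the bin from 40 to 50 Mb had the largest difference of its chromosome in percentage points in both populations, from 295 and 94 to 545 and 124 peaks in PS (log2 ratio 0.52) and from 214 and 175 to 1583 and 204 in RS (0.82). On the log2 scale the bin from 60 to 70 Mb was higher in RS (0.91). On chromosome 13 the bin from 90 to 100 Mb went from 223 and 126 to 1521 and 188 peaks in RS (0.96). The bin of chromosome 13 from 80 to 90 Mb, next to it, was lower in KO: 179 and 38 peaks in PS WT against 70 and 22 in KO (-1.19), and 167 and 82 in RS WT against 169 and 39 in KO (-1.24). Chromosome 9 from 10 to 20 Mb was also lower in RS KO (-0.71).

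KO was higher in all 4 adult pairs in 7 of 13 bins of chromosome 9, 1 of 14 of chromosome 10 and 6 of 13 of chromosome 13, where 20.2% of 257 autosomal bins were. KO was lower in all 4 in 1, 10 and 3 bins, where 27.2% were. These counts follow from the rule's own contrast. Taken by population, both KO libraries lay beyond both WT libraries and higher in 12 of the 40 bins in PS (14.8% of autosomal bins), 16 in RS (26.5%), 1 in Thy1+ (9.34%) and 0 in c-Kit+ cells (2.72%). They lay lower in 12 in PS (26.5%), 12 in RS (33.5%), 4 in Thy1+ (10.5%) and 2 in c-Kit+ cells (4.67%). In spermatogonia, which the rule did not use, 1 of the 40 bins was higher in all 4 pairs (3.89% of autosomal bins) and 2 were lower (5.45%).

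Across the 40 bins, the KO minus WT difference of pair 1 correlated with that of pair 2 at r = 0.88 in RS and r = 0.70 in PS, and the mean of PS with that of RS at r = 0.90. In Thy1+ and c-Kit+ cells the pairs had r = -0.25 and r = -0.72. Over the 217 bins of the other autosomes the values were 0.77 in RS, -0.03 in PS, 0.66 for PS with RS, 0.02 in Thy1+ and -0.61 in c-Kit+ cells. These are descriptions over bins that share libraries and the total of each list, and the bins of these chromosomes had been chosen in part for their spread.

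**Figure D5:**
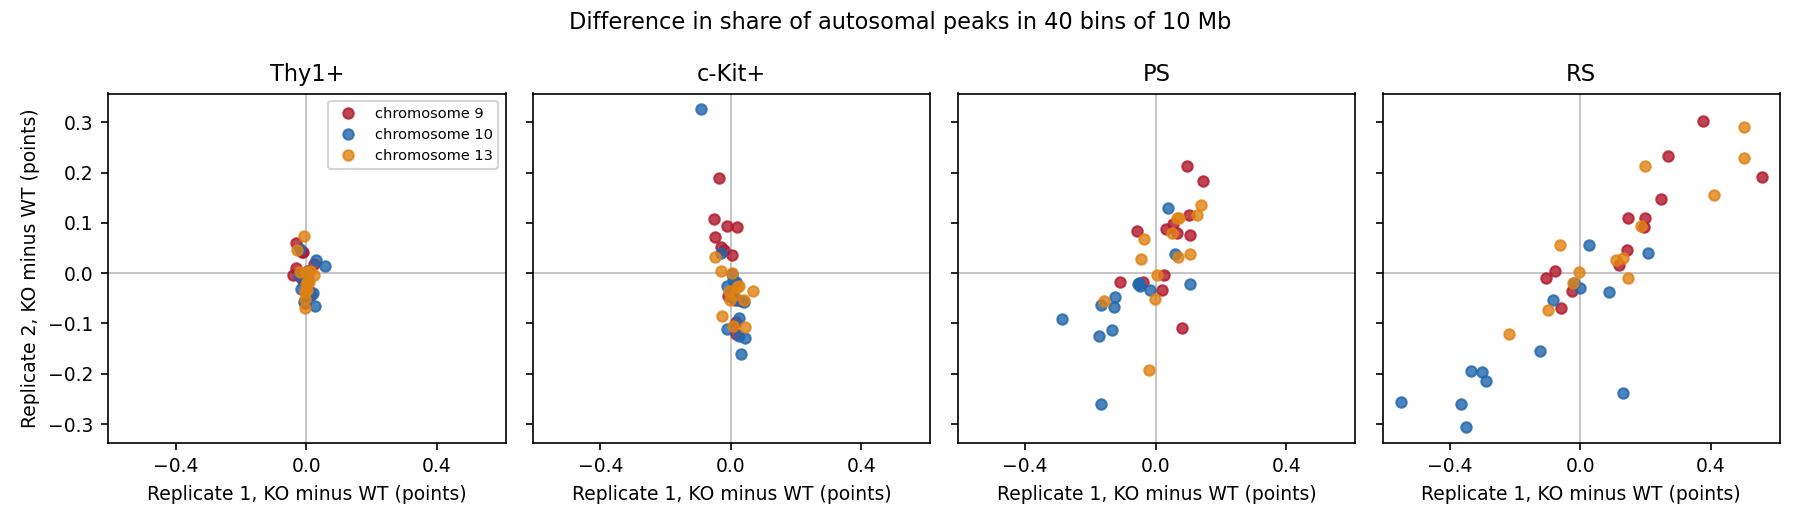
Scml2-KO minus wild type in the share of autosomal peaks (percentage points) in the 40 bins of 10 Mb on chromosomes 9 (red), 10 (blue) and 13 (orange), pair 1 on the x axis and pair 2 on the y axis, in each population. In PS and RS the points spread along a rising line (r = 0.70 and 0.88), and most bins of chromosome 10 lie at the lower left; in Thy1+ cells they gather at 0.

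Single regions were also counted. In RS 520 of the 2817 regions with a peak in both KO and neither WT library lay on these chromosomes (244 on chromosome 9, 73 on chromosome 10 and 203 on chromosome 13), with 1.63% so called over all regions open in RS. Of the 1201 with peaks in both WT libraries alone (0.696%), 16 lay on chromosome 9, 130 on chromosome 10 and 40 on chromosome 13. In PS the KO-only regions (0.423% over all) numbered 39, 15 and 31, and the WT-only regions (0.859%) 28, 89 and 43. In Thy1+ cells, 125 of 662 KO-only regions (0.431%) and 718 of 4890 WT-only regions (3.18%) lay on the 3 chromosomes. By chromosome (9, 10 and 13), the WT-only ones were 3.15%, 3.03% and 2.95% of the regions open there, and the KO-only ones 0.360%, 0.649% and 0.559%, with chromosome 10 the highest. In c-Kit+ cells the counts were 11 of 106 (0.106%) and 67 of 458 (0.460%).

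Requiring all 4 adult libraries of a genotype and none of the other, a rule added after the data were seen, left 67 KO-only regions (0.0279% of all) and 187 WT-only regions (0.0777%). On chromosome 10 there were 0 KO-only and 19 WT-only regions, on chromosome 9 7 and 1, and on chromosome 13 7 and 9. Of the 19 on chromosome 10, 15 were intergenic, beside 69.5% of the 187 in the genome. With 1 adult library left out, which requires fewer libraries, the KO-only counts were 8 to 44 on chromosome 9, 0 to 10 on chromosome 10 and 7 to 49 on chromosome 13, and the WT-only counts 1 to 7, 19 to 81 and 9 to 27. In P7 libraries the same rule left 0 KO-only (0.00%) and 2 WT-only regions on the 3 chromosomes (0.0205% over all).

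The WT-only region of highest fold enrichment on chromosome 10 was intergenic, at chr10:113868685-113869294, and the authors assigned it to Trhde, an enzyme that degrades thyrotropin-releasing hormone. It had fold enrichments of 27.4 and 13.1 in PS WT, a peak in both RS WT libraries and in 7 of 8 P7 libraries, and none in the 4 adult KO libraries. An intergenic region assigned to Hsf2, a heat shock transcription factor, at chr10:56847616-56848040 had a median fold enrichment of 10.1 in adult WT and no peak in P7 or in adult KO. In RS alone, an intergenic region assigned to 1700023F02Rik at chr10:65908024-65908453 had 19.4 and 6.01 in WT and no peak in any KO library.

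Of the KO-only regions over all adult libraries, promoters made up 4 of 7 on chromosome 9 and 2 of 7 on chromosome 13, beside 55.2% of the 67 in the genome. On chromosome 9 they included the promoters of Gm684 (chr9:51277911-51279617, median fold enrichment 5.75 in adult KO) and of Foxl2, the forkhead factor of ovarian granulosa cells (chr9:98956054-98957358, 5.25). Promoter is here the authors' class of the region: Foxl2 was not among the genes so separated by a peak within 1 kb of a start. On chromosome 13 they included the promoters of Irx1 (chr13:71962683-71964136, 5.53) and Irx4 (chr13:73260254-73260944, 4.83), neighbouring Iroquois homeobox genes. Gm684 and Snx33 had promoter peaks in 8 of 8 P7 libraries, Foxl2 in 6, Irx1 in 5 and Irx4 in 2. Within RS alone, the intronic region of Atxn1, a chromatin-associated protein, at chr13:45623751-45624232 had 24.2 and 4.76 in KO replicates 1 and 2. An intergenic region assigned to Neo1, a netrin receptor, at chr9:58863519-58864532 had 21.2 and 5.63. Both regions also had a peak in PS KO replicate 1, and that of Neo1 had one in PS WT replicate 1.

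By gene, a peak within 1 kb of a start in all 4 adult KO and no adult WT library was found for 5 genes of the 3 chromosomes (Gm684 and Snx33 on chromosome 9, and Irx1, Irx4 and the histone gene Hist1h1b on chromosome 13) and for 0.211% of all genes. The reverse was found for Grik2 on chromosome 10 (0.0785% of all genes). In P7 libraries no gene of the 3 chromosomes was so separated, KO only (0.00% of all genes) or WT only (0.0121%). Of the listed developmental regulator genes, 21 lay on these chromosomes, and 13 of them had a promoter peak in more adult KO than adult WT libraries (16.3% of all genes did) and 4 in fewer (9.91%). Over all genes of a chromosome, more KO libraries were found for 20.8% on chromosome 9, 11.4% on chromosome 10 and 22.4% on chromosome 13, and fewer for 4.73%, 11.7% and 6.14%. Beside Irx1 and Irx4, the 13 included Foxf2 and Tfap2a, each in 3 of 4 KO and 0 of 4 WT, Foxb1, in both RS KO libraries alone, and Msx2, in 2 KO and 0 WT. The 4 with fewer KO libraries were Tbx18, Zic1, Isl1 and Isl2. These counts use the contrast of the rule, and RS KO replicate 1, the longest list, is 1 of the 4 adult KO libraries. The list was chosen with earlier results of these data known. The percentages over all genes are also not a like base. Of 21317 genes, 8337 were open in all 16 libraries and 3173 in none, and such genes cannot differ by genotype. Of the 21 listed genes these were 2 and 0, so nothing is read from the contrast with all genes.

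Between P7 and adult libraries, 7484 regions of the 3 chromosomes had a peak in 5 to 11 of the 16 libraries and were tested by Fisher's exact test, with adjustment over all 48340 tested. Of these, 3468 (46.3%) were called higher in P7, against 46.8% over all regions, and 1121 (14.98%) higher in adult cells, against 14.5%. Chromosome 10 had 51.3% and 12.5%, chromosome 9 40.6% and 15.8%, and chromosome 13 45.8% and 17.3%. The counts changed with the libraries kept: without Thy1+ WT or KO replicate 1 the P7 count was 2260 or 2256. Without PS WT, PS KO or RS KO replicate 1 the adult count was 686, 737 or 677. Fewer regions were then tested, and the shares called stayed near those over all regions. In the same order they were 39.1% and 38.5% for P7 (39.6% and 39.3% over all). For adult they were 10.2%, 10.98% and 10.3% (9.77%, 10.7% and 9.87% over all). Of the 7484 regions tested, 186 had a peak in all 8 P7 libraries and no adult one, and 113 the reverse. Over all 48340 regions tested these were 1260 and 608, so nothing is read from the counts about these chromosomes.

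Sites higher in adult cells on chromosome 9 included an intron of Bmp5, a bone morphogenetic protein, at chr9:75890624-75892099, with a peak in 8 of 8 adult and 0 of 8 P7 libraries (median fold enrichment 30.2, Fisher's exact adjusted p = 0.00402). On chromosome 10 they included an intergenic region assigned to Gpr126, an adhesion G protein-coupled receptor, at chr10:14225863-14226978 (25.3) and an intron of Utrn, which encodes utrophin, at chr10:12557411-12558081 (20.4). On chromosome 13 they included intergenic regions assigned to Ankrd55 (chr13:112222149-112223272, 22.01) and Elmo1, an activator of Rac (chr13:19914793-19922241, 19.8). Each was present in 8 adult and 0 P7 libraries, in KO as in WT.

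Sites higher in P7 included, on chromosome 13, the Glrx promoter shown above (chr13:75839480-75840614, median fold enrichment 20.4) and 2 introns of the transcription factor Mef2c (chr13:83565541-83566529, 20.2, and chr13:83517894-83518808, 18.3), each in 8 P7 and 0 adult libraries (Fisher's exact adjusted p = 0.00402). On chromosome 10 they included an intron of Zdhhc17, a palmitoyltransferase, at chr10:110952787-110953671 (19.3, 8 against 0). The promoters of Slc6a15, an amino acid transporter (8 against 2, adjusted p = 0.0199), and Rgs17 (8 against 1, adjusted p = 0.00877) were also called by Fisher's exact test. On chromosome 9 the promoter of Pdgfd, a platelet-derived growth factor, was in 8 P7 and 1 adult library (chr9:6167924-6169673, 17.6).

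Of 73 listed genes on these chromosomes, 24 could be tested for a promoter peak, and 5 were called. For comparison, 24.6% of 3923 genes tested were called higher in P7 and 8.49% higher in adult cells. Tex12 and Spz1 had peaks in 8 adult and 0 P7 libraries (Fisher's exact adjusted p = 0.00361), Topaz1 in 8 and 1 (adjusted p = 0.00881) and Spata19 in 6 and 0 (adjusted p = 0.0247). Dcn, which encodes the matrix protein decorin, was the gene called higher in P7, at 6 against 0 (Fisher's exact adjusted p = 0.0247).

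Meiotic and spermatid genes on these chromosomes were not all alike. Of 7 meiotic prophase genes, 2 were called higher in adult cells, and Mei4 and Trip13 had peaks in 16 of 16 libraries. Sycp3, an axial element protein, was in 8 adult and 4 P7 libraries and was outside the range tested. Of 5 spermatid genes, Acrv1 was in 6 adult and 2 P7 libraries (adjusted p = 0.197 by Fisher's exact test), and Catsper3, Spata9 and Theg were each in 4 adult libraries, 1 in every adult group, and in no P7 library.

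Of 7 genes for sex chromosome silencing and DNA damage response, 6 (Atm, Atr, Atrip, Topbp1, H2afx and Chek1) had promoter peaks in all 16 libraries. The Polycomb partner Jarid2 was also in 16. The promoter of Thy1, the surface antigen that names the first population, lies on chromosome 9 and had a peak in 4 of 4 Thy1+ libraries, 0 of 4 c-Kit+ and 2 of 8 adult libraries, the 2 both being KO. Zbtb16, a factor of undifferentiated spermatogonia, was in 7 P7 and 3 adult libraries. Neither was called by Fisher's exact test (adjusted p = 0.711 and 0.188), nor was any of the 8 stem and progenitor genes on these chromosomes. Among the others, Id4, Ddit4 and Tcf3 were in all 16 libraries. Eomes was in 6 P7 and 5 adult libraries, Egr2 in 8 and 5, and Neurog3 in 2 and 0.

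Markers of other testis cells ranged from no library to all 16. Of 5 peritubular and smooth muscle markers, besides Dcn, Cnn1 was in 5 P7 and 1 adult library, Tagln in 6 and 5, Tcf21 in 7 and 2, and Lum in 1 and 0. The Sertoli markers were Amh, in 5 and 5, and Trf, in 5 P7 and 0 adult libraries (adjusted p = 0.0547 by Fisher's exact test). Of 5 Leydig and steroidogenic genes, Cyp11a1 and Cyp19a1, which encode steroidogenic enzymes, had no promoter peak in any library, Hsd17b3 had one in 1 P7 library, and Fdx1 and Srd5a1 had one in all 16. Of 4 endothelial and immune genes, the T cell gene Cd3e was in 1 adult library, the macrophage gene Lyz2 in 1 P7 library, Esam in 6 P7 and 2 adult libraries, and Ets1 in all 16. The part of other cells in the P7 calls was not tested.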

How the data were processed

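In all, 16 ATAC-seq libraries (75-bp single reads) of purified mouse spermatogenic cells were compared as peak lists, 1 a library. The submitters' processing notes name Bowtie 1.1.1, MACS2 2.1.0.20140616 and mm10; options of the caller, and the rule behind the annotation, were not given in the sources used here. Per the file headers, the authors deposited for each summit its pileup (signal, not scaled to depth), fold enrichment (a ratio to background), −log10 of p and q, and an annotated class and gene; the pileup was not used. A list shows only what passed the caller, and unequal depth changes its length, so read depth is unknown.

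Lines with equal chromosome, start and end were joined (1431525 lines, of which 576 on the mitochondrial genome were left out, gave 1111092 peaks of 17813 to 164060 a library), keeping the highest fold enrichment. A chromosome's share is its percent of autosomal peaks. Overlapping peaks of any libraries (1 bp or more) formed a region. A gene start was open with a peak within 1 kb. Shares were tested by exact permutation (12870 arrangements for P7 against adult, 36 within stage for KO against WT in spermatogonia), and regions and genes open in 5 to 11 libraries by two-sided Fisher's exact test, with Benjamini-Hochberg adjustment over all autosomes, regions or genes and a threshold of 0.05. Starts were those in the deposited annotation, for 21317 genes. The tests were checked on simulated data with known differences, where shares had equal spread in all libraries and no grouping by genotype. The real shares did not (SD for chromosome 9 of 0.153 in P7 and 0.669 in adult), so the check does not cover this. Python 3.11.15, numpy 2.4.6, pandas 2.3.3, scipy 1.17.1 and matplotlib 3.10.9 were used.

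Named regions were, for P7 against adult, the 4 called in each direction on each chromosome with the highest median fold enrichment, and for genotype the 1 such region in each stage, direction and chromosome; named bins had the largest differences of like sign in both pairs. Genes came from 12 marker and pathway lists. The members and lists were chosen with earlier results of these data known. Replicate numbers are those of the sample titles. WT and KO libraries of a stage were paired by replicate number as a convention, and stages were not paired. Deviations of same-numbered WT and KO libraries of a stage correlated at 0.197 to 0.649 across autosomes. Over all 28 pairs of groups, 19 exceeded 0.1 and the lowest was -0.382. The highest was 0.764, between groups of different stages (c-Kit+ KO and PS WT). List length went with the replicate number, so these correlations do not show that same-numbered libraries belong together. Alternatives were fold enrichment or −log10 q of at least 5, lists of equal length, base pairs in place of peaks, 50% coverage of a region, a 500-bp window, a replicate block and each library left out. The separation of 4 against 4 adult libraries and the P7 and adult shares within a genotype were added after the data were seen.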

Additional observations from a re-analysis of the deposited data

How the results depend on the processing

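With 2 libraries a group, no test was run within a stage. List length differed with the replicate number, and shares of 1 list sum to a fixed total, so chromosomes do not vary independently. Of the alternatives to the main shares and counts, 289 stayed within the spread between replicates, within 1.5 times a count or on the same side of the threshold, 63 moved further, 8 became called, 7 lost the call and 11 changed sign in a tested difference. Among untested differences, 13 of the Thy1+ and c-Kit+ values and 1 summed share in PS also changed sign, within that spread.

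In PS and RS none of the alternatives named above changed the sign of chromosome 9, 10 or 13. At the higher threshold of 15-fold enrichment, chromosome 9 in PS was -0.0198. These are the values by which the chromosomes were chosen. For chromosome 10, KO minus WT in PS was -0.736 at 5-fold enrichment, -0.661 at −log10 q of 5, -0.537 in lists of equal length and -0.719 by base pairs; in RS it was -1.59, -1.60, -1.53 and -1.51. For chromosome 13 in PS it was 0.340, 0.261, 0.461 and 0.320, and chromosome 9 in RS had 0.899 in lists of equal length. In equal lists, Thy1+ cells had -0.406 for chromosome 9, -0.0254 for chromosome 13 and -0.501 for the summed share, and c-Kit+ cells 0.404 for chromosome 9. The summed share in Thy1+ cells was -0.0291 at 5-fold enrichment and -0.0206 by base pairs.

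P7 minus adult for chromosome 10 passed at 5-fold enrichment (0.650, adjusted p = 0.0404 by exact permutation), at −log10 q of 5 (0.633, adjusted p = 0.0410 by exact permutation) and by base pairs (0.785, adjusted p = 0.00675 by exact permutation). The adult libraries had chosen the chromosomes, so these p-values are not independent of the choice and nothing is read from the calls. In the main setting this difference was 0.129 points in WT and 1.41 in KO. Chromosome 9 was -0.387 in equal lists, not called, and chromosome 13 was 0.0186 by base pairs, of opposite sign. With libraries left out in turn, chromosome 9 ranged from -0.798 to -0.516, chromosome 10 from 0.570 to 0.905 and chromosome 13 from -0.209 to 0.0970. In spermatogonia chromosome 10 was 0.0133 at 5-fold enrichment, 0.00851 at −log10 q of 5 and 0.00295 by base pairs; chromosome 9 was -0.00102 in equal lists and -0.0254 by base pairs. With libraries left out these ranged from -0.0852 to 0.133 for chromosome 9, -0.322 to 0.0440 for chromosome 10 and -0.332 to 0.0429 for chromosome 13. The cause was not tested.

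Regions called higher in P7 and adult numbered 1995 and 653 at 5-fold enrichment, 1766 and 607 at −log10 q of 5, 652 and 572 in equal lists, and 1555 and 278 with 50% coverage, where fewer regions were tested, and ranged from 2256 to 3855 and 677 to 1175 with libraries left out. At 5-fold enrichment the regions called were 50.9% and 16.7% of those tested, against 50.8% and 16.2% over all regions. In equal lists they were 40.2% and 35.3%, against 40.8% and 33.0%. Listed genes called higher in P7 were 2 at 5-fold enrichment, 2 with the 500-bp window, 3 in equal lists and 1 to 5 with libraries left out. Those higher in adult were 7 in equal lists. Dcn alone lost its call, in the 500-bp window (adjusted p = 0.0527 by Fisher's exact test).

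The 3 chromosomes held 16.5% of all regions open in RS, 14.7% in PS, 15.3% in Thy1+ and 15.4% in c-Kit+ cells. In the main setting they held 18.5% of KO-only and 15.5% of WT-only regions in RS, and 15.4% and 14.3% in PS. For Thy1+ cells these were 18.9% and 14.7%, and for c-Kit+ cells 10.4% and 14.6%. Of RS regions open in KO alone they held 16.8% at 5-fold enrichment, 16.7% at −log10 q of 5 and 16.1% to 17.8% with libraries left out. For WT alone the values were 18.99%, 19.6% and, in equal lists, 18.0%. In PS they held 19.8% of KO-only regions in equal lists, and of WT-only regions 11.96% at −log10 q of 5, 11.8% in equal lists and 17.6% with 50% coverage. In Thy1+ cells they held 14.3% of KO-only regions at 5-fold enrichment, 12.5% at −log10 q of 5, 12.7% in equal lists and 14.95% to 19.1% with libraries left out, and 17.8% of WT-only regions in equal lists. In c-Kit+ cells they held 2.99% of KO-only regions with 50% coverage, a share that rests on few regions (11 of 106 in the main setting).

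With the replicate number as a block, P7 minus adult had adjusted p of 0.0320, 0.0638 and 0.874 for chromosomes 9, 10 and 13 by exact permutation within numbers. These p-values too are not independent of the choice of the chromosomes by adult libraries. No spermatogonial difference passed, and 3760 and 1163 regions were called higher in P7 and adult cells. The regions called under the block were 50.2% and 15.5% of those tested, against 50.9% and 15.1% over all regions. Listed genes called higher in P7 under the block were 2, against 1 without it. The block changed no other call among the results given.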
